A study of Mus musculus with 6 samples.

Results

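The Ly6 and Gml genes described here are 10 of the 55849 genes in the count table, chosen by gene name: Ly6a, Ly6c1, Ly6c2, Ly6d, Ly6e, Ly6g, Ly6g2, Ly6m, Gml and Gml2. They were picked with the difference between Muc2-/- and wild-type colon already known, so fold changes of these 10 genes are given as description and without a test. RNA came from the descending colon of untreated mice aged 12 weeks, with 3 libraries from Muc2-/- mice, named for the main mucin that goblet cells secrete, and 3 from wild-type C57BL/6 mice. The labels do not describe the mutated allele, the strain of the mutants, sex, cage or how many animals a library holds, so the spread between libraries may be partly technical. The titles name crypts and the protocols pieces of colon. Smooth muscle genes were abundant in all 6 libraries, as given below.

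Ly6 proteins are small, cysteine-rich surface proteins of the uPAR family, most of them held in the outer leaflet of the membrane by a glycosylphosphatidylinositol anchor. Mouse Ly6 genes lie in a cluster on chromosome 15 that expanded by duplication, and several of their products are standard antibody targets for sorting stem cells and leukocytes. In the colon Ly6a, which encodes Sca-1, is known from epithelium under repair, and interferons induce Ly6a and Ly6e in many cell types.

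Total counts were 16627761 to 17465636 in the Muc2-/- libraries and 16395432 to 20336459 in the wild-type libraries. Muc2 itself was counted in every library, at 757, 1021 and 942 CPM in Muc2-/- 1, 2 and 3, against 2480, 6977 and 2629 CPM in wild-type 1, 2 and 3, which do not overlap. Its log2 fold change was -2.15 (SE 0.47), with an adjusted p of 0.103 in edgeR's quasi-likelihood test. The extent of the deletion is not described, so reads from outside it cannot serve as a test of the labels. Over all 16107 genes tested, edgeR called 17 higher (0.106%) and 3 lower (0.0186%) in Muc2-/- at an adjusted p under 0.05. Without wild-type 2 it called 0 higher and 0 lower, and without wild-type 3 it called 272 higher and 954 lower.

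In the coordinates of the count table the 10 genes spanned 461 kb of chromosome 15, from 74633905 to 75094510. The order was Ly6d, Gml, Gml2, Ly6m, Ly6e, Ly6a, Ly6c1, Ly6c2, Ly6g and Ly6g2. Gml (74685301 to 74690664) is read from the minus strand and Gml2 (74690920 to 74706720) from the plus strand, so that they start head to head with 255 bases between them. The gaps between the other neighbours ran from 34971 bases (Ly6e to Ly6a) to 59327 bases (Ly6c1 to Ly6c2). Gml2 was the only member whose interval overlapped another gene of the table, by 747 bases of the oppositely oriented Cyp11b1, a steroid hydroxylase with 1 count in all libraries together.

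Promoter windows of 300 bases were at hand for only 3 members, Ly6c1, Ly6c2 and Ly6g, and are shown for that reason. These windows partly align with each other, as given below. They are RefSeq sequences on build GRCm38.p6, a different build from the count table's coordinates, and each is the window of the most upstream start in the table. Ly6c1 lies at chr15:75048788-75049087 on the minus strand, Ly6c2 at chr15:75111922-75112221 on the minus strand and Ly6g at chr15:75155011-75155310 on the plus strand. Capitals mark TATAAA and CCAAT.
Ly6c1: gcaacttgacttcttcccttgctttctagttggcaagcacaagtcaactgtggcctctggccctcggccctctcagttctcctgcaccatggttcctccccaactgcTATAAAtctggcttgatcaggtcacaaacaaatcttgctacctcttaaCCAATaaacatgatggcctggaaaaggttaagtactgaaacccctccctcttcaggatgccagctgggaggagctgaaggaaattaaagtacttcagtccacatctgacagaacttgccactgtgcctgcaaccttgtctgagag
Ly6c2: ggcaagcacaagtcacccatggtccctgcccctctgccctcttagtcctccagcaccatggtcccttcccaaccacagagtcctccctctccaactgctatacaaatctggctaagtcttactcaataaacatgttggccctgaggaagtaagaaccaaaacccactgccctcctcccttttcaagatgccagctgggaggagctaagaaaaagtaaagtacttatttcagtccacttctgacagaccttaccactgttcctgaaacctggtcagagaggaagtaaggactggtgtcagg
Ly6g: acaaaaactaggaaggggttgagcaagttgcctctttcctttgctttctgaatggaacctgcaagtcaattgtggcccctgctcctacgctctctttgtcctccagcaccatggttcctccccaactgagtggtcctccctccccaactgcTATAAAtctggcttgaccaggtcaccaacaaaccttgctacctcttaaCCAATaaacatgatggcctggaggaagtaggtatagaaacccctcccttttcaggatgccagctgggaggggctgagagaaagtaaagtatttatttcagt

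In local alignments the Ly6c1 and Ly6g windows were 77.7% identical over 273 aligned columns, Ly6c1 and Ly6c2 74.8% over 286, and Ly6c2 and Ly6g 71.9% over 249. TATAAA was found in the windows of Ly6c1 and Ly6g, as in 13.6% of all 32851 promoter windows of this length, and CCAAT in the same 2 windows, as in 37.4% of all. The C/EBP letters TTGCNNAA stood in the Ly6g window (10.8% of all windows) and the ETS letters GGAAGT in those of Ly6c2 and Ly6g (23.8%). None of the 3 windows held the GAS motif of STAT factors (TTCNNNGAA, in 8.3% of all windows). GGAATG, known as the motif of TEAD factors, was absent from these 3 windows, and 14.7% of all windows hold it. For the GATA letters, AGATAA, the share over all windows was 11.2%, again with no match in the 3. CDX factors bind TTTATG, which 11.9% of all windows hold and none of these. Both strands were searched, and a match is a description of the letters only.

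Stretches shared between transcripts limit how reads can be assigned between members. In GENCODE M21 transcripts, 32.8% of the distinct 50-base stretches of Ly6c1 were also found in another gene, mostly Ly6c2 (21.5%) and Ly6a (11.1%). For Gml2 it was 30.8%, shared with Cyp11b1 and Gml, for Ly6a 19.0%, mostly with Ly6c1, for Gml 18.7%, all with Gml2, and for Ly6c2 14.5%, mostly with Ly6c1. Ly6m shared 5.32% and Ly6g 0.448%, while Ly6d, Ly6e and Ly6g2 shared none. At 100 bases the shares fell to 10.1% for Ly6c1, 19.7% for Gml2, 1.45% for Ly6a, 10.1% for Gml and 5.81% for Ly6c2. No source used here says how multi-mapped reads were counted, so single values of Ly6a, Ly6c1, Ly6c2, Gml and Gml2 are uncertain to that extent.

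Per gene length, the members differed widely in level. In Muc2-/- colon Ly6a led with a mean of 1497 ± 329 FPKM, followed by Ly6g with 551 ± 111 and Ly6m with 299.6 ± 43.9 (SD, n = 3). Below them came Ly6c1 (169 ± 105), Ly6e (149 ± 24.0), Ly6d (51.0 ± 26.4), Ly6g2 (29.1 ± 3.71), Gml (7.05 ± 3.92), Gml2 (3.39 ± 2.43) and Ly6c2 (3.02 ± 1.09). Ly6a exceeded 99.8% of the tested protein-coding genes in mean FPKM there. In wild-type colon Ly6m (186 ± 118 FPKM), Ly6a (179 ± 54.7) and Ly6g (155 ± 86.6) shared the top, and their libraries overlapped. Ly6e (83.4 ± 16.8) overlapped with Ly6g above it and was separate from Ly6c1 (9.57 ± 3.03), Ly6g2 (8.62 ± 2.28) and Ly6d (8.40 ± 11.1), which overlapped among themselves. Ly6c2 (0.627 ± 0.0433) and the Gml pair (0 to 0.0445) were lowest. In Muc2-/- the libraries of neighbours in the order overlapped for Ly6m with Ly6c1, Ly6c1 with Ly6e, Ly6d with Ly6g2, Gml with Gml2 and Gml2 with Ly6c2.

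**Figure D1:**
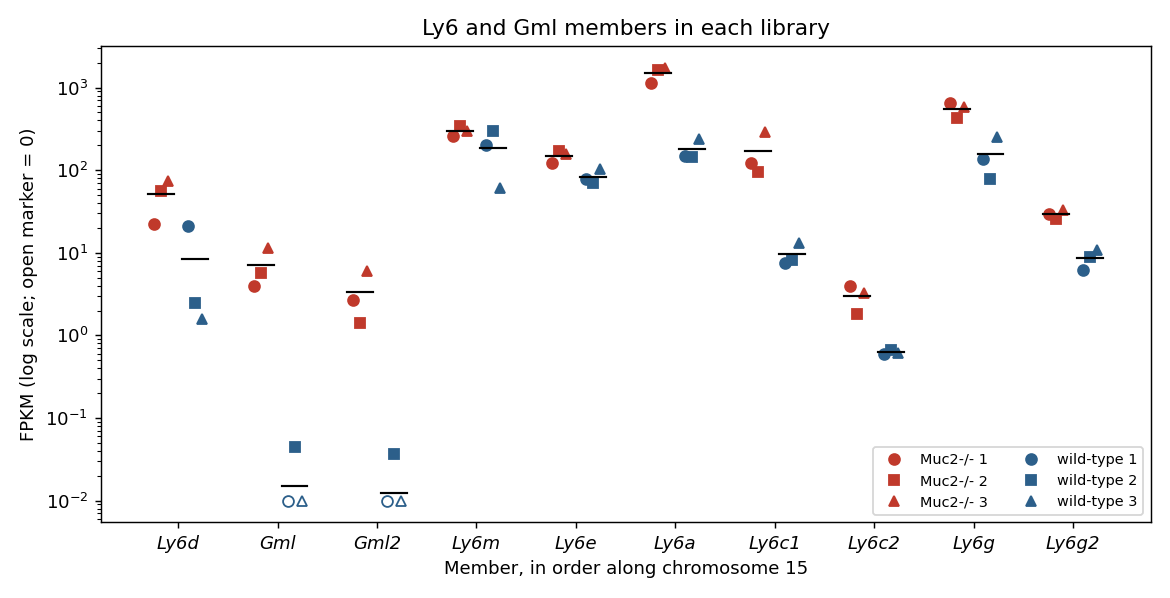
FPKM (log axis) of the 10 members in each of the 3 Muc2-/- (red, left) and 3 wild-type libraries (blue, right), in order along chromosome 15, with bars at the group means and open markers for 0. Muc2-/- libraries lie above all wild-type libraries for every member except Ly6m.

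Ly6a and Ly6e encode the antigens Sca-1 and Sca-2, named for their use in isolating blood stem cells and thymocytes. Ly6a (74866726 to 74869880) had 1124, 1618 and 1748 FPKM in Muc2-/- 1, 2 and 3, against 149, 145 and 242 FPKM in wild-type 1, 2 and 3. The lowest Muc2-/- library was several times the highest wild-type library, and the log2 fold change was 3.05 (SE 0.33), between 2.93 and 3.31 with any 1 library left out. Ly6e (74826900 to 74831754) had 122, 169 and 155 FPKM in Muc2-/- and 78.3, 69.7 and 102 FPKM in wild-type. Its groups did not overlap either, but they lay close together, with a log2 fold change of 0.82 (SE 0.24). The ratio of Ly6a to Ly6e in FPKM was 9.21, 9.58 and 11.3 in Muc2-/- 1, 2 and 3, against 1.90, 2.09 and 2.37 in wild-type 1, 2 and 3, so it varied little inside either group.

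Ly6c1 and Ly6c2 encode the Ly6C antigens, known from endothelium and T cells (Ly6c1) and from inflammatory monocytes (Ly6c2). Ly6c1 (74915867 to 74920679) had 123, 94.4 and 289 FPKM in Muc2-/- 1, 2 and 3, against 7.43, 8.23 and 13.04 FPKM in wild-type. The third Muc2-/- library stood well above the other two, and the log2 fold change was 4.13 (SE 0.49), or 3.51 without it. Ly6c2 (74980007 to 74983819) had 3.95, 1.82 and 3.28 FPKM in Muc2-/- and 0.588, 0.674 and 0.619 FPKM in wild-type (log2 fold change 2.24, SE 0.40). Here Muc2-/- 1 was the highest library, where for Ly6c1 it was Muc2-/- 3, and Muc2-/- 2 was the lowest of its group for both genes. Ly6c1 therefore stood at 31.2, 51.9 and 88.1 times the level of Ly6c2 in Muc2-/- 1, 2 and 3, against 12.6, 12.2 and 21.1 times in wild-type 1, 2 and 3. With the counts of both summed before the fit, the log2 fold change was 4.02 (SE 0.47).

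Ly6g encodes the antigen by which mouse neutrophils are sorted, and Ly6g2 lies next to it. Ly6g (75027089 to 75030975) had 645, 428 and 579 FPKM in Muc2-/- 1, 2 and 3, against 137, 79.2 and 249.6 FPKM in wild-type 1, 2 and 3. The groups did not overlap, and the wild-type libraries were spread more widely for their level than the Muc2-/- libraries (log2 fold change 1.82, SE 0.41). Ly6g2 (75088225 to 75094510) had 29.1, 25.4 and 32.8 FPKM in Muc2-/- and 6.19, 8.94 and 10.7 FPKM in wild-type (log2 fold change 1.74, SE 0.24). Ly6g stood at 22.1, 16.9 and 17.7 times Ly6g2 in Muc2-/- and at 22.1, 8.85 and 23.3 times in wild-type, so the ratio overlapped between the groups.

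Ly6d encodes ThB, an antigen of early B lineage cells and of stratified epithelium. At 74633905 to 74635469, it had 22.6, 55.7 and 74.8 FPKM in Muc2-/- 1, 2 and 3, against 21.2, 2.48 and 1.56 FPKM in wild-type 1, 2 and 3. The groups were separated by little, because wild-type 1 lay almost at the level of Muc2-/- 1. The log2 fold change was 2.56 (SE 0.95) and was 4.64 without wild-type 1. Ly6m, whose product is little studied, was the member whose groups overlapped. Ly6m (74748836 to 74768870) had 258, 345 and 296 FPKM in Muc2-/- 1, 2 and 3, against 203, 295 and 60.9 FPKM in wild-type 1, 2 and 3, where the third library was far below the other two. The log2 fold change was 0.65 (SE 0.51), and it was 0.24 without wild-type 3 and 1.14 without wild-type 2.

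Gml and Gml2 encode glycosylphosphatidylinositol-anchored molecule-like proteins, and the human GML gene is known as a target of p53. Gml had 77, 98 and 213 counts in Muc2-/- 1, 2 and 3, against 0, 1 and 0 counts in wild-type 1, 2 and 3. In Muc2-/- this is 3.95, 5.73 and 11.5 FPKM. Gml2 had 63, 29 and 137 counts in Muc2-/- and 0, 1 and 0 counts in wild-type, with 2.68, 1.40 and 6.10 FPKM in Muc2-/-. The wild-type group was thus at the edge of detection for both genes. Scaled to library size, the ratio of Muc2-/- to wild-type counts was 469 for Gml, with an exact 95% counting interval of 83.8 to 18590.4. For Gml2 it was 277, with an interval of 49.2 to 10991.5. A count of 0 in wild-type 1 and wild-type 3 allows up to 0.166 and 0.143 CPM (3 counts). Both genes were highest in Muc2-/- 3, and the Gml over Gml2 ratio of FPKM was 1.48, 4.08 and 1.88 in Muc2-/- 1, 2 and 3. Since both passed the filter on low counts through the Muc2-/- libraries alone, they had to differ.

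**Figure D2:**
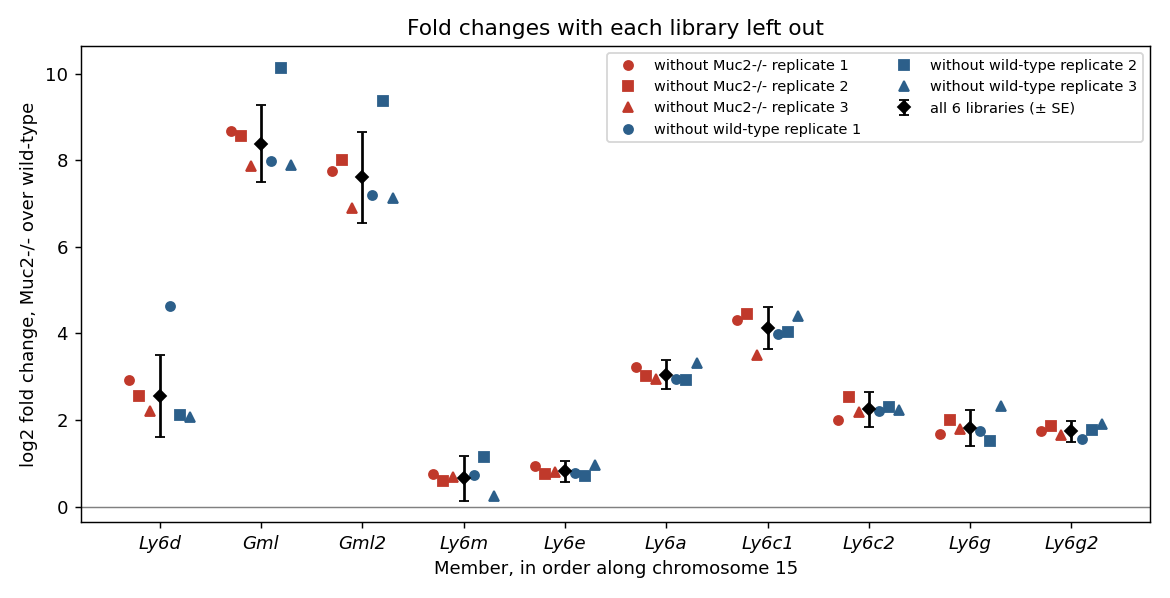
Log2 fold change (Muc2-/- over wild-type) of each member in the edgeR fit of all 6 libraries (diamond, ± SE) and with each library left out (red, a Muc2-/- library omitted; blue, a wild-type library omitted). Fold changes were above 0 for all 10 members in each of these 7 fits; Ly6d moved most among the Ly6 genes, to 4.64 without wild-type 1, and the fitted values of Gml and Gml2 depend on the prior count because wild-type held 1 count.

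All 10 members had enough counts to be tested in the fit over all genes. Of them 3 (Gml, Ly6a and Ly6c1) were called higher and 0 lower, where 0.106% of all genes were called higher and 0.0186% lower. Groups did not overlap, with Muc2-/- above, in 9 members and in 13.3% of all genes. The members were chosen on this contrast, so nothing is read from these counts. The calls changed with the libraries in the fit. Without wild-type 3 edgeR called 7 members, without Muc2-/- 2 only Ly6c1, and 0 without any 1 of the other 4 libraries. Over the same 6 fits the log2 fold change ranged from 2.93 to 3.31 for Ly6a and from 3.51 to 4.44 for Ly6c1. Calls over all genes fell as well without those other 4 libraries, to between 0 and 4 higher. At an unadjusted p under 0.05 edgeR had 9 members higher, against 8.23% of all genes, and DESeq2, with the same adjusted threshold, called 8 higher (3.35% of all genes) and 0 lower (6.8% of all genes).

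Summed over the 10 members, FPKM came to 2335, 2745 and 3196 in Muc2-/- 1, 2 and 3, against 603, 609 and 680 in wild-type 1, 2 and 3. Within each group the sum varied less than most single members did. Ly6a held 53.9% ± 5.44 of it in Muc2-/- and 28.0% ± 6.52 in wild-type, and Ly6c1 5.92% ± 2.85 in Muc2-/- and 1.5% ± 0.365 in wild-type (SD, n = 3 each). Ly6e held 5.41% ± 0.670 in Muc2-/- and 13.1% ± 1.79 in wild-type. The shares of Ly6m overlapped, with 11.03%, 12.6% and 9.27% in Muc2-/- 1, 2 and 3, against 33.7%, 48.3% and 8.95% in wild-type 1, 2 and 3. Ly6g held 20.4% ± 6.34 of the sum in Muc2-/- and 24.1% ± 11.9 in wild-type, which overlapped as well.

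**Figure D3:**
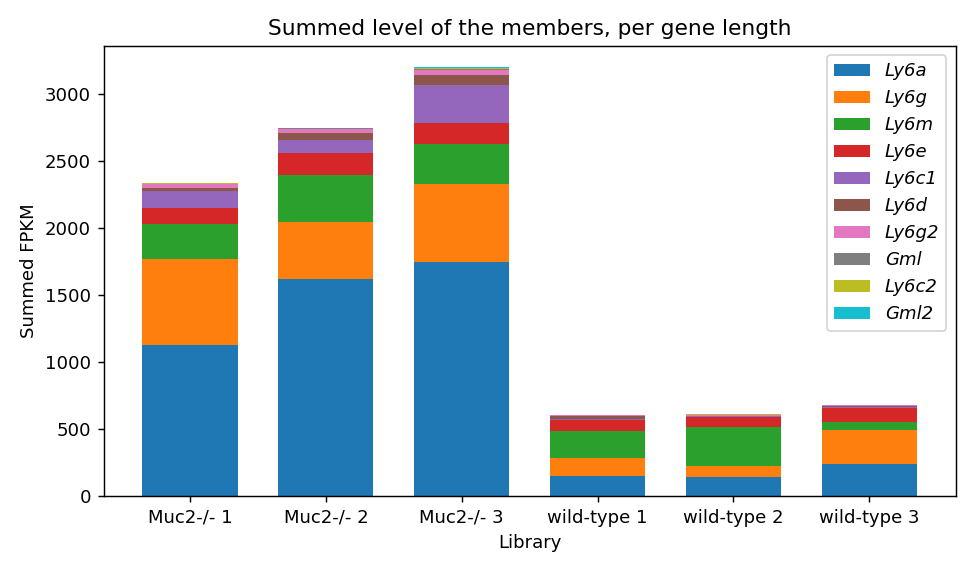
Summed FPKM of the 10 members in each library, stacked by gene, with Muc2-/- libraries on the left and wild-type on the right. The bars reach 2335 to 3196 in Muc2-/- and 603 to 680 in wild-type, and Ly6a is the tallest segment in all 3 Muc2-/- libraries.

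Most of the other genes in the neighbourhood had negative fold changes, none past the threshold. The window between the first and last member, with 500000 bases added on each side, held 53 other genes, of which 13 were tested. Of these 0 were called in either direction, 4 had a positive log2 fold change and the median was -0.62, against -0.01 over all genes tested. Of all genes tested, edgeR called 0.124% in either direction. At an unadjusted p under 0.05 it had 2 of the 13 higher and 3 lower, beside 8.23% and 12.7% of all genes. DESeq2 called 1 higher and 0 lower, beside 3.35% and 6.8% of all genes. Among the 4 with the highest mean, Lynx1, a Ly6-type modulator of nicotinic receptors, had 25.9, 15.6 and 24.2 CPM in Muc2-/- and 57.4, 37.9 and 19.9 CPM in wild-type (-0.81 in log2 fold change, edgeR adjusted p = 0.276). Top1mt, a mitochondrial topoisomerase, had 6.37, 7.47 and 5.75 CPM in Muc2-/- and 9.25, 9.85 and 11.02 CPM in wild-type (-0.62, edgeR adjusted p = 0.229). The others were the pseudogene 9030619P08Rik (log2 fold change 0.11) and Them6 (-0.48). Inside the span itself lay 17 other genes, and the lncRNA gene Gm39556 was the only one tested (log2 fold change 0.35). Its untested Ly6 genes were nearly silent: Ly6i, the best counted of them, had 6, 8 and 45 counts in Muc2-/- 1, 2 and 3 and 6, 1 and 6 counts in wild-type 1, 2 and 3.

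**Figure D4:**
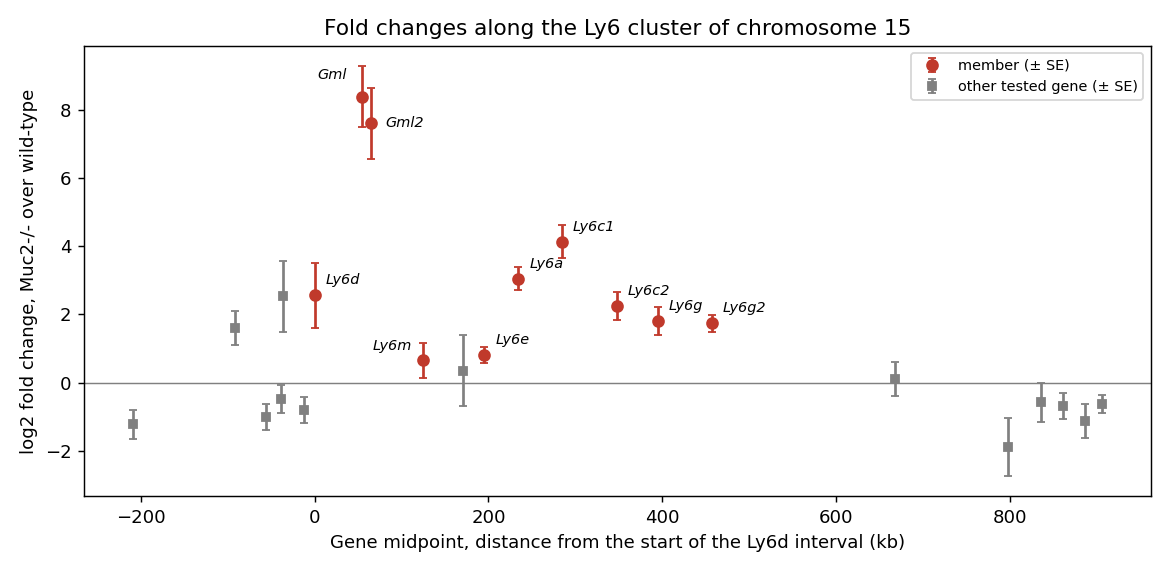
Log2 fold change (Muc2-/- over wild-type, ± SE) of the 10 members (red circles) and of the 13 other tested genes of the window (grey squares), against the distance of the gene midpoint from the start of the Ly6d interval in kb. Members lie between 0.65 (Ly6m) and the Gml pair, while 9 of the 13 other genes lie below 0; the heights of Gml and Gml2 depend on the prior count.

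Other genes of the Ly6 and uPAR family had fold changes of both signs, none past the threshold. The list named 41 genes outside the members, 40 of them in the table and 16 tested. edgeR called 0 in either direction, beside 0.106% of all genes higher and 0.0186% lower. At an unadjusted p under 0.05 it had 5 of the 16 higher and 1 lower, beside 8.23% and 12.7% of all genes. DESeq2 called 3 higher and 1 lower, beside 3.35% and 6.8% of all genes. Of the 16, 8 lay above 0 in log2 fold change, beside 49.1% of all genes tested, and the median was 0.12. Lypd8, a colonic protein that keeps flagellated bacteria from the epithelium, had the highest CPM, at 15990.2, 6912 and 11558 CPM in Muc2-/- 1, 2 and 3, against 5250, 7111 and 10242 CPM in wild-type 1, 2 and 3 (0.61 in log2 fold change, adjusted p = 0.492 in edgeR). Cd177, a glycoprotein of neutrophils that was also counted in every wild-type library, had 536, 390 and 669 CPM in Muc2-/- and 239, 215 and 87.5 CPM in wild-type (1.56, edgeR adjusted p = 0.105). Cd59a, which blocks the complement attack complex, had 21.9, 15.9 and 6.43 CPM in Muc2-/- and 69.2, 56.8 and 21.2 CPM in wild-type (-1.74, edgeR adjusted p = 0.133). Lynx1, given above, is the fourth by mean. Plaur, the urokinase receptor, named after its value was seen, had 16.3, 31.5 and 37.1 CPM in Muc2-/- and 9.75, 7.77 and 4.82 CPM in wild-type (1.93, edgeR adjusted p = 0.101).

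Several members are markers of blood-derived or endothelial cells, and fewer cells of a type cannot be told from less RNA per cell in these bulk samples. For every marker list, the shares over all genes tested were 0.106% called higher, 0.0186% called lower and 49.1% above 0 in log2 fold change. With so few genes called at all, 0 called in a short list is not read as no change. Ly6c1 had 208, 155 and 483 CPM in Muc2-/- and 12.9, 14.0 and 21.5 CPM in wild-type. The 15 endothelial markers summed to 102 to 125 CPM in Muc2-/- and to 118 to 142 CPM in wild-type. None was called, 3 of 15 had a positive log2 fold change and the median was -0.25. Plvap and Pecam1, the most abundant, had log2 fold changes of 0.50 and -0.66 (edgeR adjusted p = 0.261 and 0.200). Without Plvap the endothelial sum was 68.3 to 85.3 CPM in Muc2-/- and 90.5 to 122 CPM in wild-type, which do not overlap. Without Pecam1 as well, it was 53.9 to 74.6 CPM in Muc2-/- and 68.1 to 95.3 CPM in wild-type, which overlap. Of 10 T cell markers 9 were tested and 0 called, 8 lay above 0 (median 1.25), and their sum was 15.1 to 36.2 CPM in Muc2-/- and 6.48 to 20.8 CPM in wild-type. Lck (log2 fold change 0.48) and Trbc2 (1.201) led that list by mean.

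Ly6g was well counted in wild-type libraries that held no S100a9. In wild-type 1, 2 and 3 it stood at 133, 75.8 and 231 CPM, while S100a9, a calcium-binding protein that neutrophils carry in bulk, had 0 counts in all 3. In Muc2-/- 1, 2 and 3 Ly6g had 611, 396 and 544 CPM, against 19.8, 0.727 and 80.8 CPM of S100a9, so the order of the libraries was not shared. S100a8, its partner, had 41.6, 4.36 and 152 CPM in Muc2-/- and 0, 0.156 and 0 CPM in wild-type. The list named 12 neutrophil markers, of which the table held 11 and 5 were tested, with 0 called. S100a8, S100a9 and Ltf passed the filter on low counts through the Muc2-/- libraries alone and so had to lie above 0, so no median is read from the list. Of the other 2 tested, Csf3r had 1.91, 1.52 and 3.52 CPM in Muc2-/- and 1.05, 0.678 and 0.429 CPM in wild-type. Lcn2, which epithelium also makes, had 5.48, 1.92 and 12.2 CPM in Muc2-/- and 5.15, 1.82 and 1.24 CPM in wild-type, which overlap. Ngp and Stfa2l1 had 0 counts everywhere, and 4 more, S100a9, Retnlg, Cxcr2 and Mmp8, had 0 in wild-type. The listed markers summed to 16.3 to 274 CPM in Muc2-/- and 2.15 to 7.15 CPM in wild-type. How much of the difference in Ly6g comes from neutrophils was not tested.

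Ly6c2, a monocyte marker, had 10.9, 4.89 and 8.96 CPM in Muc2-/- and 1.66, 1.88 and 1.67 CPM in wild-type. Of 12 monocyte and macrophage markers 11 were tested, 10 lay above 0 (median 1.08) and 0 were called. Their sum was 2204 to 3524 CPM in Muc2-/- and 823 to 1187 CPM in wild-type, most of it from Plac8. Without Plac8 the sum was 341, 223 and 378 CPM in Muc2-/- 1, 2 and 3, against 325, 149 and 175 CPM in wild-type 1, 2 and 3, which overlap. Without Lyz2 as well, it was 119 to 193 CPM in Muc2-/- and 55.4 to 91.2 CPM in wild-type, which do not. Lyz2, second by mean, had 181, 104 and 185 CPM in Muc2-/- and 249, 93.8 and 83.7 CPM in wild-type (0.14, edgeR adjusted p = 0.887). Ccr2 and F13a1 are named outside the rule, after their values were seen. Ccr2, the receptor by which monocytes leave the marrow, had 5.66, 5.68 and 8.53 CPM in Muc2-/- and 2.82, 1.88 and 3.24 CPM in wild-type (1.32, edgeR adjusted p = 0.120). F13a1, a coagulation factor gene of monocytes and macrophages, had 2.92, 1.72 and 1.98 CPM in Muc2-/- and 7.92, 3.28 and 8.34 CPM in wild-type (-1.56, edgeR adjusted p = 0.126). The part of monocyte number in the difference of Ly6c2 was not tested. Of 8 plasma cell markers 3 were called higher, beside 0.106% of all genes tested: Igha (log2 fold change 2.65), Igkc (2.46) and Jchain (2.30), with edgeR adjusted p of 0.0456, 0.0490 and 0.0286. These calls were among those lost without wild-type 2. The list had a median of 1.88 and a sum of 5830 to 7144 CPM in Muc2-/- against 1229 to 1771 CPM in wild-type.

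**Figure D5:**
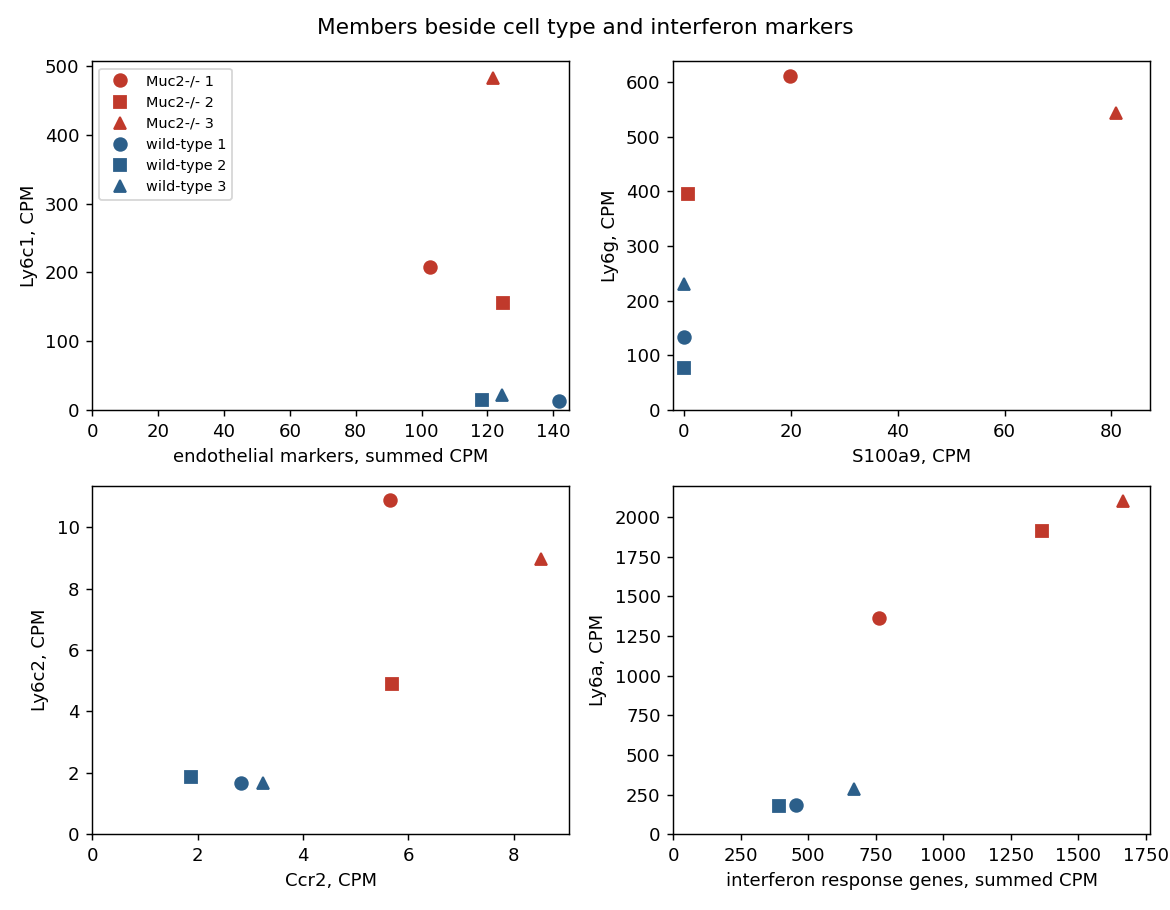
Each library's CPM of Ly6c1 against the summed endothelial markers, of Ly6g against S100a9, of Ly6c2 against Ccr2 (chosen after its values were seen), and of Ly6a against the summed interferon response genes, with Muc2-/- in red and wild-type in blue. Endothelial sums overlap (102 to 125 and 118 to 142 CPM) where Ly6c1 does not. Without Plvap the endothelial sums do not overlap, with Muc2-/- below. S100a9 is at 0 in wild-type at 75.8 to 231 CPM of Ly6g, and Ly6a and the interferon sum put the 6 libraries in the same order.

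Markers of epithelium and muscle had sums that did not overlap between the groups, with no single gene called. The 10 colonic epithelial markers summed to 25178 to 41683 CPM in Muc2-/- and to 11979 to 22577 CPM in wild-type, with 9 above 0 (median 0.56) and 0 called. The 10 smooth muscle genes summed to 2554 to 4570.5 CPM in Muc2-/- and to 5946 to 21109.7 CPM in wild-type, with 0 above 0 (median -1.70) and 0 called. Krt8 (log2 fold change 0.93) and Krt19 (1.26) led the epithelial list by mean. Without those 2 keratins the epithelial sum was 10567 to 14765 CPM in Muc2-/- and 6507 to 10928 CPM in wild-type, which overlap. Slc26a3, the chloride exchanger of colonocytes, named after its value was seen, had 1004, 443 and 734 CPM in Muc2-/- and 1039.6, 1513 and 2143 CPM in wild-type (-1.11, edgeR adjusted p = 0.172). The muscle list was led by Des (-1.51) and Myh11 (-2.52). The share of tissue layers in the members' values was not tested. The table held 11 of 13 fetal-like epithelial markers, 10 were tested, 6 lay above 0 (median 1.29) and 0 were called, with sums of 3668 to 7306 CPM in Muc2-/- and 1776 to 2209 CPM in wild-type. S100a6 (log2 fold change 1.35) and Anxa1 (2.02) had the highest means in it. Clu, known from revival stem cells and picked here once its value was known, had -1.14 (edgeR adjusted p = 0.387). Its libraries had 45.8, 21.5 and 51.2 CPM in Muc2-/- 1, 2 and 3, against 189, 48.7 and 24.4 CPM in wild-type 1, 2 and 3. These overlap, and wild-type 1 stood far above the rest.

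Interferon response genes were led in mean by the transcription factor gene Irf1 (log2 fold change 1.05) and the GTPase gene Gbp2 (1.63). Of 16 tested, 15 lay above 0 (median 1.24) and 0 were called, beside 49.1% above 0 and 0.106% called higher of all genes tested. They summed to 761, 1365 and 1666 CPM in Muc2-/- 1, 2 and 3, against 454, 391 and 671 CPM in wild-type 1, 2 and 3. Ly6a had 1364, 1914 and 2101 CPM in Muc2-/- and 185, 178 and 287 CPM in wild-type, which puts the 6 libraries in the same order as the interferon sum. What interferon contributes to Ly6a was not tested. Ly6e, with 465, 627 and 585 CPM in Muc2-/- and 306, 268 and 380 CPM in wild-type, shared it in wild-type and not in Muc2-/-. Squamous markers were low in all 6 libraries. Of 12 listed, Ivl, Krtdap and Sprr3 had 0 counts in all libraries, 4 were tested, and the sum was 5.48 to 7.20 CPM in Muc2-/- and 4.38 to 6.15 CPM in wild-type. Krt14 (log2 fold change 0.17) and Krt13 (2.30) were the most abundant, 3 of the 4 lay above 0 (median 0.40), and 0 were called. Krt13 had 2.20, 1.45 and 3.28 CPM in Muc2-/- and 0.554, 0.261 and 0.572 CPM in wild-type, which do not overlap. Krt14, Lor and Dsg3 overlapped between the groups. What squamous cells contribute to Ly6d was not tested.

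Genes with profiles most like those of 5 members were found by the root mean square distance of log2 CPM, centred on each gene's mean, over the 6 libraries, among 13456 protein-coding genes. Each profile holds the genotype difference, so likeness includes a fold change of like size. Nearest to Ly6a were Marcksl1, a membrane-bound actin regulator (distance 0.38), Syt8 (0.45) and Jchain, which joins IgA into dimers (0.48), and the nearest member was Ly6c1, at rank 24. Nearest to Ly6g were Ikzf2 (0.20), Cbr2 (0.25) and the interferon-induced GTPase gene Gbp2b (0.26), with Ly6g2 at rank 37. Ly6e was nearest to Hif1a, the hypoxia-regulated transcription factor (0.045), the class I gene H2-T22 (0.091) and Pimreg (0.093). Its nearest member, Ly6g2, lay at 0.547 and only at rank 6331 of the 13456 genes. Distances were not scaled by the size of the fold change, so they are not compared between members. Ly6c1 was nearest to Myot (0.36), Ces2f (0.46) and Cxcl2 (0.53), and Gml2 was its nearest member at rank 6. In wild-type 1, 2 and 3, Myot had 0, 0.0521 and 0 CPM and Cxcl2 had 0, 0.104 and 0 CPM. Ces2f had 0.111, 0.313 and 0.572 CPM there. The distances of these genes from Ly6c1 therefore depend in part on the prior count. For Gml, the nearest gene of all was its head-to-head neighbour Gml2 (0.61), followed by Ltf (0.63) and Prss22 (0.78). At 0 or 1 count in wild-type, the profiles of Gml and Gml2 rest mainly on the Muc2-/- libraries and the prior count.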

How the data were processed

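Polyadenylated RNA of colon was sequenced with paired-end Illumina reads in 6 libraries, grouped by sample title. Whole-number counts per gene and FPKM values were deposited as separate tables. The submitters' processing notes list featureCounts 1.5.0-p3, HISAT2 2.0.5, DESeq2 1.20.0 and StringTie 1.3.3b with build mm10 and give none a role. No source used here gives the strand setting. Per the deposited FPKM table's values, each library's FPKM equals counts over gene length times 1 constant, which scales totals by 0.860 to 1.14. GENCODE M21 (mm10) shares 52133 gene IDs with the count table, 51549 of equal width but only 1546 at equal positions, so the count table's coordinates are of another assembly than mm10 and are printed as given.

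The counts as deposited went into edgeR 4.0.16 under R 4.3.3 (TMM, filterByExpr at its defaults, quasi-likelihood fit with genotype, Benjamini-Hochberg over all 16107 genes, threshold 0.05), a procedure tested on simulated data. CPM are counts over the library total times the TMM factor. The SE of an edgeR log2 fold change is its absolute value over the square root of the quasi-likelihood F statistic, an approximation. DESeq2 1.42.0 and limma 3.58.1 were alternatives. Profiles used log2 CPM with a prior count of 2. Stretches and promoters were searched in Python 3.11.15 with Biopython 1.88 for alignment. Named genes are the members, Muc2, called genes of each list or else its 4 (family, window) or 2 (markers) highest by mean, and the 3 nearest profiles. Exceptions are marked, apart from Cyp11b1, Gm39556, Ly6i and the further genes named from the neutrophil and squamous lists. Marker sums without a list's leading genes were added after seeing the data. The members and lists were chosen with earlier results of these data known. Chi-square per degree of freedom between libraries of a group was 25.0 to 148, so no library was a copy of another. Intervals and floors cover counting error only.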

Additional observations from a re-analysis of the deposited data

How the results depend on the processing

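The log2 fold changes of all 10 members stayed positive in each of the alternatives run, 17 or 18 per member. The members were chosen with this contrast known, and the alternatives draw on the same libraries, so these signs are description and no test. Gml and Gml2 passed the filter through the Muc2-/- libraries alone and had to lie above 0. The counts of calls did not hold. Genes called higher (17 in the fit reported) and lower (3) were 7 and 1 without composition factors, 384 and 815 with no filter on low counts, 619 and 1256 in DESeq2, 37 and 9 with limma on log2(FPKM + 1), 31 and 8 with log2(FPKM + 0.1), 3 and 0 with log2(FPKM + 1) and no filter, and 1 and 0 without Muc2-/- 2 and wild-type 1 together. RLE factors gave 5 lower. With each library left out the counts ran from 0 to 272 higher and from 0 to 954 lower, highest without wild-type 3. Members called higher (3) were 1 without composition factors, 8 with no filter and 8 in DESeq2, 0 with log2(FPKM + 1) and no filter, 0 without Muc2-/- 2 and wild-type 1 together, and 0 to 7 with each library left out. Of the wider family 3 were called higher and 1 lower with no filter and in DESeq2, and 0 to 2 higher and 0 to 1 lower with each library left out.

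No label says whether the replicate numbers in the titles pair the libraries. Same-numbered libraries had correlations of their deviations from the group means of 0.0937, 0.281 and 0.0606. With the number as a replicate block 225 genes were called higher and 448 lower, 7 members higher, and 1 gene of the wider family higher and 1 lower. Muc2-/- 1 and Muc2-/- 2 correlated best with the wild-type library of their own number, and Muc2-/- 3 with wild-type 1 (0.0636). These correlations do not settle whether the libraries are paired.

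The median log2 fold change of the wider family (0.12) was 0.61 with no filter, 0.42 with the stricter filter, 0.64 in DESeq2, 0.53 without Muc2-/- 2 and wild-type 1 together, and -0.02 to 0.25 with each library left out. It stayed above 0 in 14 of 17 alternatives. The window's median (-0.62) was -0.81 without composition factors, -0.37 with no filter, -0.35 in DESeq2, -0.42 in limma with 1 added to FPKM, -0.52 with 0.1 added, -0.00605 with 1 added and no filter, and -0.69 to -0.25 with each library left out. Leaving out composition factors moved the median of all genes to -0.20. Where not stated, the cause was not tested. With 1 count in wild-type, the fold of Gml and Gml2 cannot be given closer than its counting interval.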
